A study of Oryza sativa Japonica Group with 14 samples.

Results

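H3K4me3 and H3K27me3 peaks of the wild-type rice shoot apical meristem (WT SAM) were set against each other. The members were all peaks of both deposited WT SAM lists, 34909 of the 130467 peaks in the 8 lists of the series, and they were divided into peaks with both marks and peaks with one mark. A peak had both marks where it overlapped a peak of the other mark by at least 1 bp. The shoot apical meristem is the growing point that produces leaves, and at flowering the inflorescence meristem (IM) takes its place. WT SAM came from DongJin plants at the 6 to 7 leaf stage, in apices under 0.5 mm. The libraries used beside it were IM at the 10 to 12 leaf stage from plants with RNA interference against SDG711, from the jmj703 T-DNA insertion line and from WT plants, all of DongJin background. SDG711 is a Polycomb-group methyltransferase of H3K27 in rice, and JMJ703 is a demethylase of H3K4. About 400 field-grown plants were dissected for the collections per the labels, so each library is a pool of apices.

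H3K4me3 is laid down around the starts of transcribed genes and is a usual mark of active promoters. H3K27me3 is laid down by Polycomb complexes, which keep developmental regulators silent in tissues where they are not needed, and in plants it typically spreads over whole genes. In stem cells both marks have been described at the same promoters, where genes are held silent but can be switched on.

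The WT SAM H3K4me3 library had 13703302 tags after filtering and 22358 peaks that covered 31.8 Mb, or 7.93% of the 401 Mb effective genome. The WT SAM H3K27me3 library had 16321456 tags and 12551 peaks that covered 23.2 Mb, or 5.78%. Peaks held 24.4% of the H3K4me3 tags and 17.1% of the H3K27me3 tags, and their median lengths were 1323 bp and 1536 bp. Each mark had 1 library, so no difference was tested. The 95% intervals cover counting error over peaks only, and neighbouring peaks are not independent. No control library was used in peak calling, so a local excess of sequence copies counts as signal for both marks. The marks were measured in separate libraries of dissected tissue, so overlap does not show both marks on the same chromatin. In such tissue fewer cells with a mark and less mark per cell cannot be told apart. Regions are given by position in the files' own coordinates. As their build was not given in the sources used here, neither genes nor sequences are named.

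Both marks were found at 4143 of 22358 H3K4me3 peaks, or 18.5% (95% Wilson interval 18.0 to 19.0), and at 4121 of 12551 H3K27me3 peaks, or 32.8% (32.0 to 33.7). The remaining 18215 H3K4me3 peaks and 8430 H3K27me3 peaks had one mark. The peaks formed 4152 overlapping pairs, of which 4072 (98.1%) were one-to-one. In the other pairs, 31 H3K27me3 peaks overlapped 2 H3K4me3 peaks and 9 H3K4me3 peaks overlapped 2 H3K27me3 peaks. The shared sequence came to 5.01 Mb, which was 15.8% of the sequence under H3K4me3 peaks and 21.7% of that under H3K27me3 peaks. With both lists held to a p of at most 1e-10 the shares were 8.38% of H3K4me3 peaks and 18.3% of H3K27me3 peaks. With the 10000 peaks of highest score in each list they were 9.18% and 9.19%. As nearly all pairs were one-to-one, lists of equal length give nearly equal shares by construction. The contrast between 18.5% and 32.8% thus follows the lengths of the lists and does not compare the marks.

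Where both marks occurred, one peak mostly lay on top of the other. The overlap had a median of 1108.5 bp (95% interval 1099 to 1121) and covered a median of 97.6% of the H3K4me3 peak and 86.8% of the H3K27me3 peak. The H3K4me3 peak lay wholly inside the H3K27me3 peak in 1827 pairs (44.0%). The reverse held in 1240 pairs (29.9%), and 1085 pairs (26.1%) overlapped at one side. Pairs that only touched at their edges were few. Overlaps under 200 bp occurred in 91 pairs (2.19%), and 34 overlaps were at most 50 bp long, next to 37 one-mark H3K4me3 peaks that lay within 50 bp of H3K27me3 without overlapping it.

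The summits, which are the positions of highest tag pileup, were close together. Their distance had a median of 151 bp (143 to 159) and quartiles of 54 and 385 bp. Sheared fragments were 200 to 750 bp long, so the median lay below the shortest fragment length. The summits were at most 200 bp apart in 57.8% of pairs and at most 1000 bp apart in 92.5%, and the longest distance was 4353 bp. Each summit fell inside the peak of the other mark in 3708 pairs (89.3%), and neither did in 127 pairs (3.06%).

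**Figure D1:**
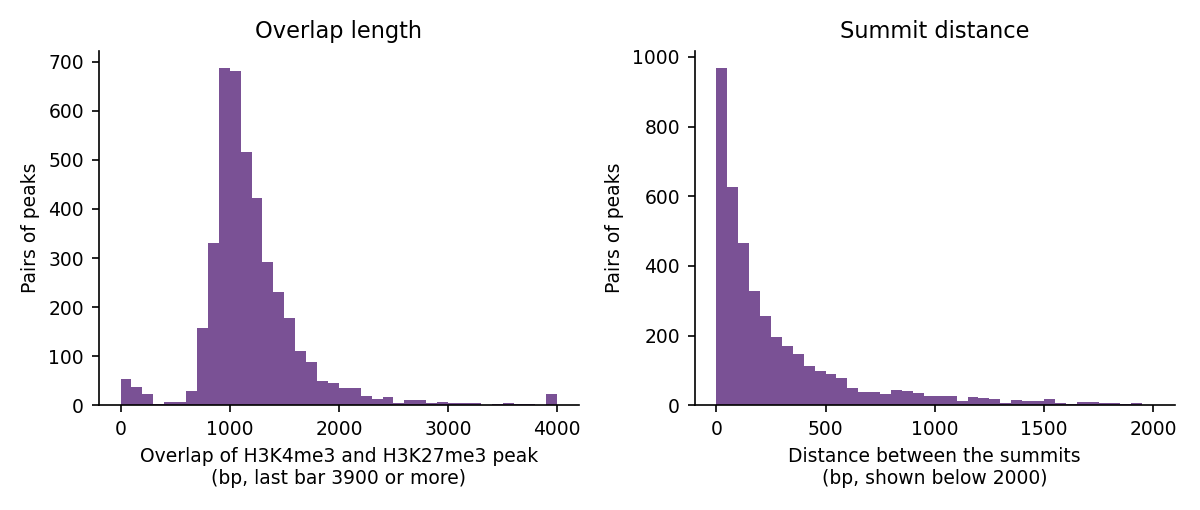
Overlap length (left, bp) and distance between summits (right, bp) of the overlapping WT SAM pairs of an H3K4me3 and an H3K27me3 peak, as numbers of pairs per bin; the last overlap bar holds all overlaps of 3900 bp or more. Overlaps gather near the median of 1108.5 bp with few short ones, and summit distances are most frequent below 50 bp.

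The H3K4me3 peaks with both marks were less dense in tags than those with one mark, and the H3K27me3 peaks differed little. Tag density was counted as tags per kb and per 1e+06 tags of the library. H3K4me3 density had a median of 5.98 (5.92 to 6.06) at peaks with both marks and 7.38 (7.35 to 7.41) at peaks with one mark, a ratio of 0.811. H3K27me3 density had a median of 6.31 (6.22 to 6.39) at peaks with both marks and 6.50 (6.45 to 6.55) at peaks with one mark, a ratio of 0.970. The H3K27me3 difference turned round with the deposited fold over local background, whose medians were 3.81 with both marks and 3.69 with one mark, a ratio of 1.03. The deposited H3K4me3 fold kept the direction, with medians of 4.10 and 5.02. Among the 10000 peaks of highest score per list the ratio of both marks over one was 0.991 for H3K4me3 and 0.825 for H3K27me3, so there it was H3K27me3 whose peaks with both marks were less dense. The local background, recovered from the deposited p, had medians of 2.82 with both marks and 3.10 with one mark for H3K4me3, and of 3.03 and 3.41 for H3K27me3. Without a control, this background comes from the same library and can include the mark's own signal. H3K4me3 peaks had median lengths of 1327 bp with both marks and 1323 bp with one. H3K27me3 peaks were shorter with both marks than with one (1465 and 1575 bp).

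The share of H3K4me3 peaks with both marks was highest among the sparsest peaks. Ranked by tag density into 10 equal groups, 47.3% of the lowest and 34.5% of the next had both marks. The share then fell to 7.61% in group 7 and stood at 21.6% in group 10, the densest. Ranked by deposited fold it decreased without this upturn, being 41.6% in group 1 and 7.96% in group 10. Ranked by score the upturn was present, with 31.6% in group 1, 9.66% in group 8 and 21.2% in group 10. The densest H3K4me3 peaks with both marks were long, with a median of 1910 bp. Their H3K27me3 partners were short and sparse, with a median of 1108 bp and a density of 4.90. The sparsest H3K4me3 peaks were themselves short (1025 bp) and met long H3K27me3 partners of 1654 bp and a density of 7.09.

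H3K27me3 peaks behaved differently across ranks. Their share with both marks was 46.3% in the sparsest group, between 28.1% and 31.6% in groups 3 to 9, and 37.1% in the densest. Ranked by fold it was lowest at the bottom (23.4%) and highest at the top (39.4%). Ranked by score it was 27.6% in group 1 and 44.1% in group 10. The H3K4me3 partners of the sparsest H3K27me3 peaks were dense, with a median of 8.56, and those of the densest had a median of 5.62.

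**Figure D2:**
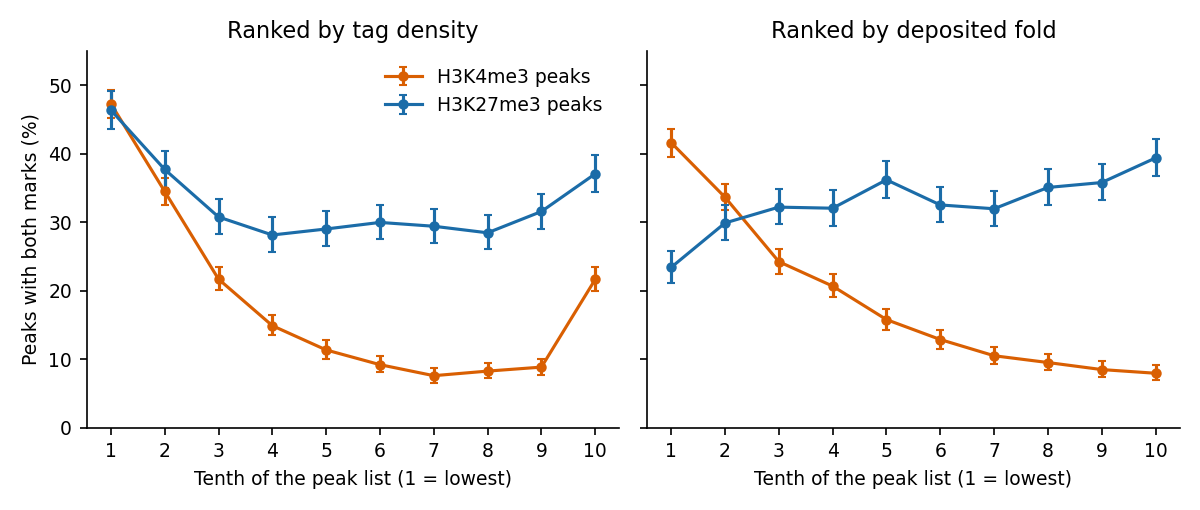
Share of WT SAM peaks with both marks (%) in 10 equal groups of each list, ranked by tag density (left) or by the deposited fold (right), for H3K4me3 and H3K27me3 peaks; bars are 95% Wilson intervals. The H3K4me3 share is 47.3% in the sparsest group and has an upturn to 21.6% in the densest that is missing when peaks are ranked by fold.

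Within the 4072 one-to-one pairs the marks were seldom both dense. The ratio of H3K4me3 to H3K27me3 density had a median of 0.962 and ranged between 0.317 and 3.36. H3K4me3 was denser in 1884 pairs (46.3%). It was at least 2-fold denser in 428 pairs (10.5%), and H3K27me3 was at least 2-fold denser in 171 pairs (4.2%). The side on which the median lay depended on the scale, since it was 1.06 with the deposited fold, 1.05 with density less local background and 0.676 with depth taken as tags inside peaks. It was 1.402 among the 10000 peaks of highest score per list. The log2 ratios did not form a single peak: 532 pairs lay between -0.2 and 0, 179 between 0.6 and 0.8, and 242 between 1 and 1.2.

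Each pair was placed by whether its peaks reached the median density of their own full list, which was 7.19 for H3K4me3 and 6.44 for H3K27me3. Both peaks did so in 295 pairs (7.24%). H3K4me3 alone did so in 940 pairs (23.1%) and H3K27me3 alone in 1641 (40.3%). In 1196 pairs (29.4%) neither did. Across the 4072 pairs, Spearman's rho between the densities was -0.37 and Pearson's r -0.13. With density less background the values were -0.20 and -0.06, and with the deposited fold 0.06 and 0.20. These are descriptions across pairs that share 2 libraries. Both peaks of a pair had to pass the peak cutoff, and both densities depend on peak length.

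**Figure D3:**
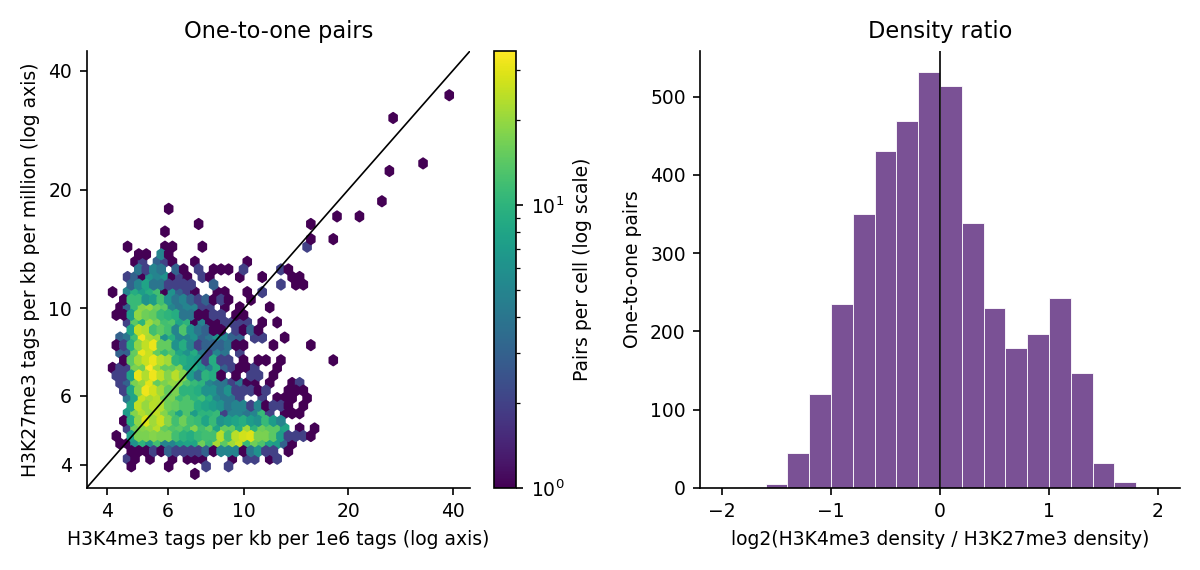
Left, H3K27me3 against H3K4me3 tag density (per kb and per 1e+06 tags, log axes) of the one-to-one WT SAM pairs, with the line of equal density; colour gives pairs per cell. Right, log2 of the H3K4me3 to H3K27me3 density ratio. Pairs lie along both axes in an L shape with few in the upper right, and the ratios have a second rise between 1 and 1.2.

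The pairs were divided into 5 groups by density ratio, with H3K27me3-rich pairs in group 1 and H3K4me3-rich pairs in group 5. H3K4me3 density had medians of 5.22, 5.46, 5.77, 6.76 and 9.81 in groups 1 to 5. H3K27me3 density had medians of 9.42, 7.23, 6.04, 5.35 and 4.79. The weaker mark of each extreme group thus lay near the low end of its own list, where the sparsest of the 10 H3K4me3 groups ended at a density of 5.31. Peak length moved with density. H3K4me3 peaks had a median of 1128 bp in group 1 and 1752 bp in group 5, and H3K27me3 peaks 2153 bp and 1046 bp. In group 1, 771 of 815 pairs had the H3K4me3 peak inside the H3K27me3 peak, and in group 5, 767 of 815 had the H3K27me3 peak inside the H3K4me3 peak. The summit distance changed little and had medians of 161, 167.5, 142, 146 and 135 bp, so the weaker mark was centred near the summit of the stronger one in each group.

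The 5 pairs with the strongest score in both lists had density ratios between 0.911 and 1.36. The first lay at chromosome 4, with the H3K4me3 peak at 997-2345 (498 tags, density 26.9) and the H3K27me3 peak at 980-2325 (650 tags, density 29.6). The second lay at chromosome 10, with H3K4me3 at 997-1564 (density 24.8) and H3K27me3 at 854-1557 (density 18.3). The third lay at chromosome 8, with H3K4me3 at 997-1704 (density 18.7) and H3K27me3 at 883-1697 (density 17.0). All 3 lie at the start of a chromosome, and their summits were 8, 8 and 14 bp apart. The fourth lay at chromosome 2, with H3K4me3 at 28715016-28717156 (density 39.1) and H3K27me3 at 28715004-28717092 (density 34.7). Its local background was 18.1 for H3K4me3 and 18.7 for H3K27me3, where the genome mean is 2.49. The fifth, at chromosome 5, had H3K4me3 at 17783694-17786016 (density 12.2) and H3K27me3 at 17783615-17785958 (density 9.17), with a background of 3.47 and 2.72 and summits 1047 bp apart. All 5 overlapped peaks of both marks in the SDG711 RNAi, jmj703 and WT IM lists.

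Of the 5 longest overlaps, 4 had local backgrounds between 8.53 and 17.8, and the remaining one had 4.88 for H3K4me3 and 4.96 for H3K27me3. The longest, 6383 bp, joined the H3K4me3 peak at chromosome 5, 29803394-29809776 (1117 tags, density 12.8) with the H3K27me3 peak at 29803345-29809905 (1238 tags, density 11.6), over backgrounds of 9.14 and 8.53. Of the next 4, 3 lay on chromosome 1. There H3K4me3 at 16941743-16947995 (density 14.1) met H3K27me3 at 16941387-16948038 (density 11.8), with the summits 4353 bp apart. H3K4me3 at 16850263-16856391 (density 14.6) met H3K27me3 at 16850386-16856387 (density 12.2), and H3K4me3 at 16909578-16915517 (density 25.8) met H3K27me3 at 16909596-16915517 (density 22.1). The remaining one lay at chromosome 5, with H3K4me3 at 498983-504986 (density 6.49) and H3K27me3 at 498968-505174 (density 6.44). Among the one-to-one pairs, 42 had a local background of at least 2 times the genome mean for both marks. Their density ratio had quartiles of 1.04 and 1.19, their overlap a median of 3693.5 bp, and Spearman's rho between the densities was 0.84, whereas it was -0.39 in the other 4030 pairs. Whether extra sequence copies carry these pairs was not tested. Without all peaks of high background in either list, 16.1% of H3K4me3 peaks and 32.8% of H3K27me3 peaks had both marks.

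The pairs of extreme ratio show a strong peak of one mark over a weak peak of the other. The highest ratio, 3.36, was at chromosome 6, where H3K4me3 at 24033586-24037154 had 772 tags (density 15.8) and H3K27me3 at 24034347-24035310 had 74 tags (density 4.70). The next, at chromosome 5, had 369 H3K4me3 tags at 28231743-28233401 (density 16.2) and 85 H3K27me3 tags at 28232305-28233358 (density 4.94). At chromosome 8 there were 239 H3K4me3 tags at 26536162-26537436 (density 13.7) and 67 H3K27me3 tags at 26536421-26537354 (density 4.40). In these 3 pairs the H3K27me3 peak lay wholly inside the H3K4me3 peak and its background was 2.49, the genome mean. All 3 overlapped H3K4me3 peaks in every IM list, and none overlapped an H3K27me3 peak in SDG711 RNAi IM. Both outcomes were usual for group 5, where H3K27me3 was found in SDG711 RNAi IM for 5.64% of pairs, beside 46.1% of all H3K27me3 peaks. H3K4me3 was found for 98.8% of group 5 in SDG711 RNAi IM, 94.5% in jmj703 IM and 99.3% in WT IM. In WT IM, however, all 3 pairs overlapped an H3K27me3 peak, which only 30.7% of group 5 did. The chromosome 6 and chromosome 8 pairs also did in jmj703 IM, beside 30.9% of group 5.

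At the other end, the lowest ratio, 0.317, was at chromosome 5, where H3K4me3 at 16327465-16328903 had 90 tags (density 4.56) and H3K27me3 at 16327283-16329663 had 560 tags (density 14.4). At chromosome 12 there were 177 H3K4me3 tags at 23130050-23132190 (density 6.03) and 763 H3K27me3 tags at 23129785-23132434 (density 17.6). At chromosome 1 there were 122 H3K4me3 tags at 32501277-32503097 (density 4.89) and 507 H3K27me3 tags at 32501051-32503330 (density 13.6). In these the H3K4me3 peak lay inside the H3K27me3 peak, and none overlapped an H3K4me3 peak in any IM list. In group 1 H3K4me3 was found for 29.2% of pairs in SDG711 RNAi IM, 14.2% in jmj703 IM and 24.8% in WT IM. The chromosome 12 and chromosome 1 pairs overlapped H3K27me3 peaks in jmj703 IM and WT IM, the chromosome 1 pair also did in SDG711 RNAi IM, and the chromosome 5 pair overlapped none in any IM list.

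Peaks with one mark were mostly several kb from the other mark. The 18215 one-mark H3K4me3 peaks lay a median of 11569 bp (11321 to 11833) from the nearest H3K27me3 peak, and the 8430 one-mark H3K27me3 peaks 5892.5 bp (5726 to 6070) from the nearest H3K4me3 peak. The lists differ in length, with more H3K4me3 peaks to be near to. With the 10000 peaks of highest score in each list the gaps were 14781.5 bp for H3K4me3 and 14205 bp for H3K27me3. Gaps depend on the number of peaks to be near to, so neither setting compares the marks themselves. With a p of at most 1e-10 they were 18093 bp and 7914.5 bp. The gap was at most 1 kb for 814 (4.47%) of one-mark H3K4me3 peaks and 798 (9.47%) of one-mark H3K27me3 peaks. It was over 50 kb for 1047 (5.75%) and 201 (2.38%). Per kb of gap, one-mark H3K4me3 peaks numbered 814 up to 1 kb, 896 between 1 and 2 kb and 902 between 2 and 5 kb. They numbered 753 between 5 and 10 kb, 455 between 10 and 20 kb and 148 between 20 and 50 kb. One-mark H3K27me3 peaks numbered 798, 853, 700, 382, 160 and 32.2 per kb in the same bands. These counts were not set against the sequence present at each distance, and peaks that reach over an edge have both marks by definition. Gathering at edges was thus not tested.

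Tag density differed little with distance, and was somewhat lower at H3K4me3 peaks near H3K27me3. One-mark H3K4me3 peaks at most 1 kb from H3K27me3 had a median density of 7.03, and those over 20 kb away 7.43. Their deposited fold had medians of 4.59 and 5.11. One-mark H3K27me3 peaks had median densities of 6.48 and 6.39 in the same classes, and median folds of 3.69 and 3.56. The other mark was nearer than the next peak of the same mark for 28.5% of one-mark H3K4me3 peaks and 49.0% of one-mark H3K27me3 peaks. Peaks with both marks stood farther from their own kind. The gap to the next H3K4me3 peak had a median of 6538 bp with both marks and 5294 bp with one, and the gap to the next H3K27me3 peak 8946 bp with both and 6691.5 bp with one.

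**Figure D4:**
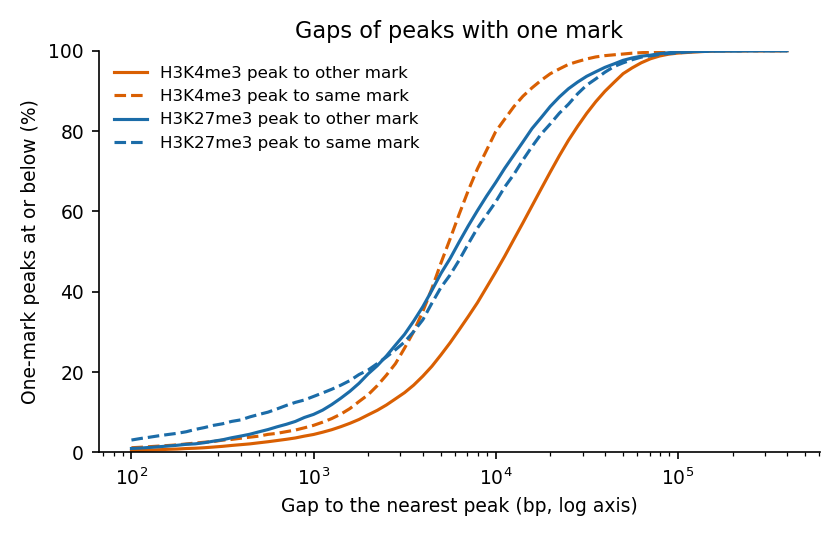
Cumulative share (%) of one-mark WT SAM peaks by the gap (bp, log axis) to the nearest peak of the other mark (solid) or of the same mark (dashed). The H3K4me3 line to the other mark lies to the right, with a median of 11569 bp, and the H3K27me3 lines to the other and the same mark lie close together beyond 2 kb.

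The strongest one-mark H3K4me3 peaks by score lay at chromosome 11, 7960337-7963150 (556 tags, density 14.4), chromosome 4, 19994274-19996366 (426 tags, density 14.9), chromosome 7, 1770501-1772685 (366 tags, density 12.2), chromosome 4, 29212811-29214423 (319 tags, density 14.4) and chromosome 3, 32027850-32029978 (395 tags, density 13.5). They were 7639 to 33122 bp from H3K27me3. All 5 overlapped H3K4me3 peaks in every IM list, and the chromosome 11 peak also overlapped H3K27me3 peaks in every IM list. The strongest one-mark H3K27me3 peaks lay at chromosome 6, 2335526-2338618 (703 tags, density 13.9), chromosome 12, 8882930-8884645 (329 tags, density 11.7), chromosome 8, 24567287-24568986 (346 tags, density 12.5), chromosome 6, 3268886-3272143 (874 tags, density 16.4) and chromosome 8, 16072452-16074234 (341 tags, density 11.7). They were 981 to 10990 bp from H3K4me3. All 5 overlapped H3K27me3 peaks and no H3K4me3 peak in every IM list.

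The peaks farthest from the other mark were neighbours. This follows in part from the measure, as all peaks deep within the same stretch free of the other mark have long gaps. The 3 H3K4me3 peaks farthest from H3K27me3 were neighbours on chromosome 6, at 14891925-14892896, 14912254-14913691 and 14924693-14925849, with gaps of 243832, 230595 and 218437 bp. The 3 H3K27me3 peaks farthest from H3K4me3 were neighbours on chromosome 11, at 28369210-28370196, 28363336-28366468 and 28361259-28362721, with gaps of 238758, 232884 and 230807 bp.

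The H3K4me3 summit was less central in long H3K27me3 peaks than in shorter ones. Of 1413 H3K27me3 peaks of at least 3 kb, 407 had both marks, and the H3K4me3 summit lay at a median of 0.408 of the way from the middle of the peak to its edge. It lay beyond the midpoint of that way in 40.3% of their pairs. In H3K27me3 peaks under 3 kb the median was 0.261 and the share 18.9%. By chromosome, the H3K4me3 share with both marks was between 15.3% on chromosome 3 and 23.3% on chromosome 11. On these chromosomes the H3K27me3 share ran the other way, with 35.3% on chromosome 3 and 28.0% on chromosome 11. The order did not hold throughout, since chromosome 9 had 30.1% for H3K27me3 and 18.5% for H3K4me3. Chromosome 3 had 2.32 H3K4me3 peaks for each H3K27me3 peak and chromosome 11 had 1.20. As nearly all pairs were one-to-one, the shares of a chromosome differ by about this ratio by construction.

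The WT SAM peaks were then looked up in the IM lists, which played no part in dividing them. An H3K4me3 peak of the same position was found in WT IM for 59.7% (58.2 to 61.2) of H3K4me3 peaks with both marks and 95.3% (95.02 to 95.64) of those with one mark, beside 88.7% of all. For H3K27me3 the shares were 57.1% (55.6 to 58.6) with both marks and 65.7% (64.7 to 66.7) with one, beside 62.9% of all. Peaks of like density differed too. In the sparsest of 5 density groups, 27.5% of H3K4me3 peaks with both marks and 78.6% of those with one mark overlapped a WT IM H3K4me3 peak, with median densities of 5.23 and 5.36 and median folds of 3.66 and 3.95. In the densest group the shares were 99.4% and 99.8%. For H3K27me3 they were 27.9% with both marks and 38.7% with one in the sparsest group, and 73.8% and 66.8% in the densest. Among the 10000 WT SAM peaks of highest score per list, the H3K4me3 shares were 96.7% with both marks and 99.9% with one. The H3K27me3 shares there were 56.7% with both marks and 70.9% with one. These shares hold beside different depths, since the WT IM libraries had 18452560 and 22887617 tags.

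The density ratio in WT SAM went with which mark was found in WT IM, but the ratio groups also order each mark by its own density. An H3K4me3 peak was found for 24.8%, 39.9%, 54.1%, 80.7% and 99.3% of pairs in ratio groups 1 to 5, and an H3K27me3 peak for 73.5%, 72.5%, 60.2%, 48.3% and 30.7%. H3K27me3 alone was found for 459 of 815 pairs (56.3%) in group 1, and H3K4me3 alone for 561 of 815 (68.8%) in group 5. Both marks were found most often in group 4, at 43.7%. Own density alone gave similar shares among all peaks with both marks. H3K4me3 was found in WT IM for 27.5% of the sparsest of 5 density groups and 99.4% of the densest. H3K27me3 was found for 27.9% of the sparsest and 73.8% of the densest. Whether the ratio adds to own density was not tested. With the 10000 peaks of highest score per list, H3K27me3 alone was found for 7.07% of group 1 and H3K4me3 alone for 48.9% of group 5. With a p of at most 1e-10 the shares were 44.9% and 44.6%.

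The altered genotypes had the same order. In SDG711 RNAi IM, where 88.8% of all WT SAM H3K4me3 peaks and 46.1% of all H3K27me3 peaks were found, group 1 kept H3K4me3 in 29.2% and H3K27me3 in 64.4% of pairs. Group 5 kept H3K4me3 in 98.8% and H3K27me3 in 5.64%. Own density alone gave similar H3K27me3 shares. Of H3K27me3 peaks with both marks, 6.64% were found in the sparsest of 5 density groups and 66.2% in the densest. In jmj703 IM, where 80.3% of all H3K4me3 peaks and 59.4% of all H3K27me3 peaks were found, group 1 kept H3K4me3 in 14.2% and H3K27me3 in 74.6% of pairs. Group 5 kept H3K4me3 in 94.5% and H3K27me3 in 30.9%. By own density, the H3K27me3 shares in jmj703 IM were 26.9% in the sparsest group and 74.8% in the densest. The SDG711 RNAi H3K27me3 library had 10502005 tags and the jmj703 H3K4me3 library 4869161, the shallowest for their marks, and the part of depth in these shares was not tested.

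**Figure D5:**
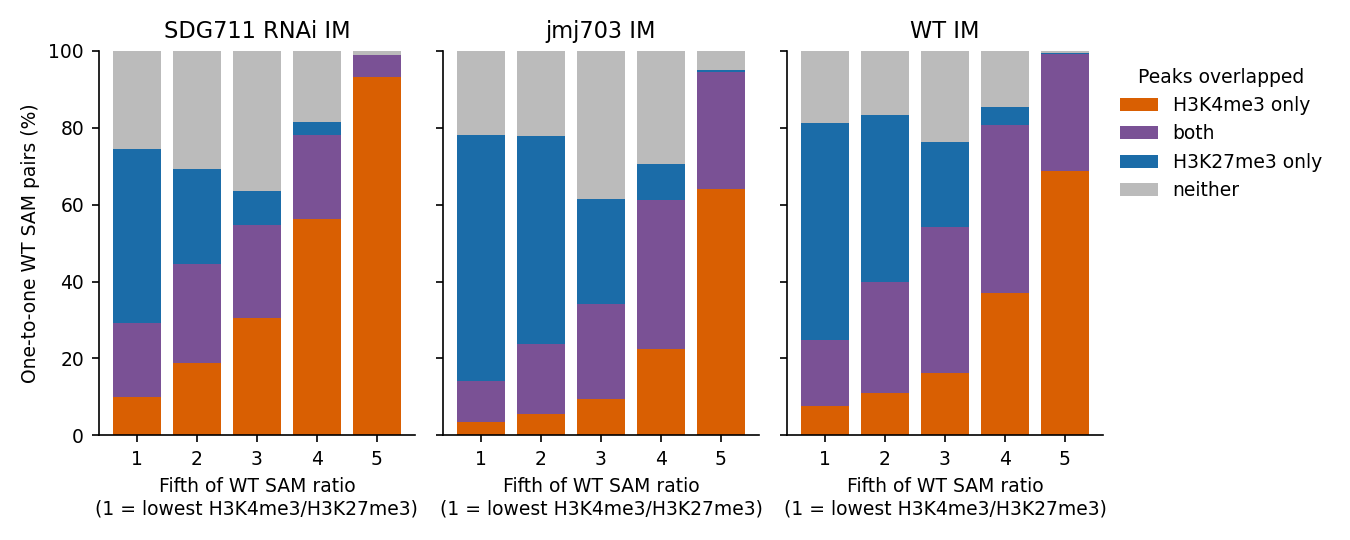
Share (%) of one-to-one WT SAM pairs, in 5 groups by H3K4me3 to H3K27me3 density ratio, that overlap an H3K4me3 peak only, peaks of both marks, an H3K27me3 peak only or neither in SDG711 RNAi IM, jmj703 IM and WT IM. H3K4me3 alone grows with the ratio in every panel, reaching 93.1% in SDG711 RNAi IM, 64.2% in jmj703 IM and 68.8% in WT IM.

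The same measures were taken in pairs of each IM list, with no test of the differences. The median summit distance of pairs was 151 bp in WT SAM, 644 bp in SDG711 RNAi IM, 158 bp in jmj703 IM and 205 bp in WT IM. Neither summit lay inside the other peak in 3.06% of WT SAM pairs, 25.0% of SDG711 RNAi IM pairs, 7.77% of jmj703 IM pairs and 13.7% of WT IM pairs. The median share of the H3K4me3 peak that was covered was 97.6% in WT SAM, 64.7% in SDG711 RNAi IM, 72.1% in jmj703 IM and 60.3% in WT IM. For the H3K27me3 peak it was 86.8% in WT SAM, 51.2% in SDG711 RNAi IM, 100% in jmj703 IM and 97.4% in WT IM. The covered share was thus higher than in WT SAM for H3K27me3 in jmj703 IM and WT IM, and lower for H3K4me3 in every IM list. WT SAM had 4152 pairs, beside 1630 in SDG711 RNAi IM, 2663 in jmj703 IM and 2910 in WT IM. Each value rests on 1 library per mark, and their depths differ.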

How the data were processed

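ChIP-seq peak lists of 8 libraries were used, 1 library per tissue, genotype and mark, grouped by sample title. The 6 RNA samples were not analysed here. The authors' peak calls came from MACS 1.4.0rc2 run per library, per the file headers, without a control, on alignments with duplicates removed, with a p cutoff of 1e-05, an effective genome of 401 Mb, a band width of 300 bp, a tag size of 45 bp, a shift size d of 200 bp and a 10 kb regional background. At most 2 tags per position were kept for WT SAM H3K4me3 and 3 for WT SAM H3K27me3. The submitters' processing notes list Trimmomatic 0.32 and Bowtie2 2.1.0, and also Cufflinks 2.2.1 with TopHat2 2.0.13, and give no step for any of them.

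The deposited tag count of a peak is raw. The deposited score is the negative log10 of the Poisson p times 10, and the deposited fold is the ratio of peak height to local background. Both are the authors' values. Tag density was computed here from count, length and depth, and local background by inverting the deposited p at the tag count. With no control, that background can hold the mark's own signal, also where it enters the fold or is subtracted. Starts below 1 were set to 1. Overlap meant at least 1 bp. Shares have Wilson intervals, and medians binomial order-statistic intervals. With 1 library per group, nothing was tested. Overlaps, gaps and backgrounds were tested on simulated data. Python 3.11.15, pandas 2.3.3, numpy 2.4.6, scipy 1.17.1 and matplotlib 3.10.9 were used.

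Members and lists were chosen with earlier results of these data known. Regions were named by rank: the 5 one-to-one pairs of highest smaller score, the 5 longest overlaps, the 3 highest and 3 lowest density ratios, and for one-mark peaks of each mark the 5 of highest score and the 3 farthest from the other mark. No region exceeded the density limit of 100 set for naming. The alternatives were a stricter p, equal list length, overlap of 0.5 of the shorter peak, peaks joined within 1 kb, other scales of depth and density, the top 1% left out and peaks of high background left out.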

Additional observations from a re-analysis of the deposited data

Results flagged for a closer look

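Some values in the IM lists lay on the other side of 1 from WT SAM. These differences were not tested, and each value rests on 1 library per mark. The H3K4me3 to H3K27me3 density ratio of one-to-one pairs had a median of 0.962 in WT SAM, 2.75 in jmj703 IM and 1.66 in WT IM. The median H3K4me3 density of peaks with both marks was 0.811 times that of peaks with one mark in WT SAM and 1.25 times in jmj703 IM. The same ratio for H3K27me3 density was 0.970 in WT SAM and 1.01 in SDG711 RNAi IM. The ratio of median H3K4me3 peak lengths was 1.00 in WT SAM and 0.955 in SDG711 RNAi IM.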

How the results depend on the processing

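No paired analysis was possible because each mark had 1 library, and for the same reason no library was left out in turn. Of 92 alternative values, 47 stayed within the interval of the reported value, 40 moved out of it and 5 changed side. High local background and the values in WT IM were examined as alternatives chosen after seeing the data.

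With a p of at most 1e-10 in both lists, both marks were found at 8.38% of H3K4me3 peaks and 18.3% of H3K27me3 peaks. The median overlap was 1355 bp, the summit distance 180.5 bp and the H3K4me3 density ratio of both marks over one 0.838. The gaps of one-mark peaks were 18093 bp for H3K4me3 and 7914.5 bp for H3K27me3. H3K4me3 was found in WT IM for 74.2% of peaks with both marks and 98.9% with one, and H3K27me3 for 70.3% and 77.2%. H3K4me3 alone in WT IM came to 44.6% of the highest ratio group, and H3K27me3 alone to 44.9% of the lowest.

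With 10000 peaks per list, the shares with both marks were 9.18% for H3K4me3 and 9.19% for H3K27me3, the overlap 1304 bp and the summit distance 176 bp. The density ratio of both marks over one was 0.991 for H3K4me3 and 0.825 for H3K27me3, and the ratio within pairs changed side to 1.402. The gaps were 14781.5 bp for H3K4me3 and 14205 bp for H3K27me3. H3K4me3 was found in WT IM for 96.7% of peaks with both marks and 99.9% with one, and H3K27me3 for 56.7% and 70.9%. H3K4me3 alone came to 48.9% of the highest ratio group, and H3K27me3 alone to 7.07% of the lowest. This setting shortens the H3K4me3 list more than the H3K27me3 list, and equal lengths make the shares with both marks nearly equal by construction.

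With the deposited fold, the H3K27me3 ratio of both marks over one changed side to 1.03 and the ratio within pairs to 1.06. With density less background they changed side to 1.04 and 1.05, and the H3K4me3 ratio was 0.745. Depth as tags inside peaks gave 0.676 within pairs. An overlap of 0.5 of the shorter peak gave shares of 18.0% for H3K4me3 and 31.9% for H3K27me3, leaving out the densest 1% gave 18.0% and 31.9%, and joining peaks within 1 kb gave 34.6% for H3K27me3. Without peaks of high background the H3K4me3 share was 16.1%, the overlap 1096 bp, the ratio within pairs 0.999, and the gap of one-mark H3K4me3 peaks 12829 bp. This setting shortens the H3K27me3 list more than the H3K4me3 list. H3K4me3 was then found in WT IM for 94.1% of peaks with one mark and H3K27me3 for 68.7%, and H3K27me3 alone for 63.5% of the lowest ratio group. The causes were not tested. Depth limits what counts as one mark, since a peak just under the cutoff in the other library is not in its list.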
